A study of Mus musculus with 3 samples.

Results

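The molecular chaperones measured here are the heat shock proteins and their DnaJ cochaperones, 62 of the 25562 genes in the deposited gene tables. Members were chosen by symbol alone: the HSP70, HSP110, HSP90, small HSP and mitochondrial chaperonin names and the DnaJ A, B and C names, without the endoplasmic reticulum HSP70 gene Hspa5. They fall into 9 HSP70, 3 HSP110, 3 HSP90, 3 mitochondrial chaperonin and 7 small HSP genes, and 4 DnaJ A, 13 DnaJ B and 20 DnaJ C genes. The cells were neurons from the medial ganglionic eminence (MGE), an embryonic source of inhibitory interneurons, taken from C57Bl/6 mice at embryonic day 14 and kept in culture for 10 days. All cultures were silenced overnight from day 9 with tetrodotoxin (TTX), which blocks sodium channels, and AP-5, which blocks NMDA receptors. They were then depolarized with 55 mM extracellular KCl for 0, 1 or 6 h, in 1 library per time; the 0 h library was silenced in the same way and not depolarized. The series, by its title, looks for genes that activity induces in cortical inhibitory neurons.

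Chaperones bind unfolded or partly folded proteins and keep them from aggregating. HSP70 proteins grip and release a client as they split ATP: DnaJ proteins deliver clients and trigger the splitting, and HSP110 proteins act as nucleotide exchange factors that let the client go. HSP90 completes the folding of kinases and receptors, small HSPs hold unfolded clients without ATP, and the HSP60 and HSP10 chaperonin folds proteins inside mitochondria. In neurons the DnaJ protein encoded by Dnajc5 sits on synaptic vesicles, and that of Dnajc6 strips clathrin from recycled vesicles. Heat and other protein damage activate HSF1, a transcription factor that binds heat shock elements in chaperone promoters, repeats of the unit GAA in alternating orientation.

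Each value below is a number of uniquely mapped sense reads in the exons or the introns of a gene. A ratio between 2 libraries was taken after scaling, with an exact Clopper-Pearson 95% interval on how the reads divide between them, which covers counting error only. Each time has 1 library, so the spread between cultures is unknown and no test between times was made. A gene was called 2-fold or 1.5-fold higher or lower where its ratio passed that fold, the interval excluded 1, and 1 of the 2 libraries held at least 20 reads. The libraries held 8549377 to 8996897 uniquely mapped reads, of which 2189394 to 2480579 were sense exonic and 1789710 to 2123187 sense intronic. The 9 MGE interneuron markers summed to 3694, 3580 and 5285 RPM (exonic reads per 1000000 scaled exonic reads) at 0, 1 and 6 h. Markers of excitatory neurons summed to at most 4.91 RPM (1 of 6 at 0 throughout), of microglia to at most 0.446 (2 of 3 at 0) and of endothelial cells to at most 2.68 (2 of 3 at 0). The 6 astrocyte and radial glia markers stood at 1299, 1298 and 1305 and the 5 of the oligodendrocyte lineage at 85.7, 83.2 and 96.6. The 3 markers of dividing cells stood at 98.6, 93.9 and 78.9. These sums hold markers that differed in direction. Among the interneuron markers, Gad1, Sst and Npy were 1.5-fold higher at 6 h (ratios 1.82, 1.52 and 1.60). Lhx6 was 1.5-fold lower at 6 h (838, 645 and 496 reads, 0.560). Olig2 was 2-fold higher at 6 h (50, 59 and 108 reads, ratio 2.04) and Pdgfra 2-fold lower at 6 h (90, 80 and 43 reads, 0.452). Gfap was 1.5-fold lower at 1 h and 6 h (61, 36 and 41 reads, 0.526 and 0.636). The part of glia in any chaperone value was not tested. In bulk RNA, fewer cells of a type and less RNA per cell cannot be told apart. All 6 early activity genes of the list were at least 2-fold higher at 1 h, with summed levels of 70.9, 2749 and 576 RPM.

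In exonic reads at 1 h the cochaperone gene Dnajb1 stood 3.23-fold higher and the small HSP gene Hspb8 2.20-fold higher, and no other of the 42 compared members was called at 2-fold, where 1.58% of all genes were called higher and 1.43% lower. By 6 h Hspb8 had the highest ratio of the compared members, at 3.23, and Dnajb5 the lowest, at 0.340, the only members called 2-fold higher or lower, beside 4.92% and 5.42% of all genes. The 3 HSP110 genes were above 1 at both times by smaller amounts, and the mitochondrial pair Hspd1 and Hspe1 stood near 1.9-fold at 6 h. The constitutive HSP90 gene Hsp90ab1, the member with the most unique reads, was lower at 1 h, at 0.793.

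Among the 62 members, 42 reached 20 exonic reads in a library (67.7%, against 40.3% of all genes) and were compared. Another 7 peaked at 4 to 19 reads: Dnajb3, Dnajb6, Dnajc17, Dnajc19, Hspa1a, Hspa1b and Hspb6. The remaining 13 had 3 or fewer in every library. They are Dnajb7, Dnajb8, Dnajb13, Dnajc5b, Dnajc5g, Hspa1l, Hspa12b, Hspb1, Hspb2, Hspb3, Hspb7, Hspb9 and an intronless copy of Hspd1 on chromosome 11, and 6 of them had no exonic read. A library with 0 reads of a gene allows up to 3 reads, which is 1.37, 1.22 and 1.21 per 1000000 exonic reads at 0, 1 and 6 h. Reads that mapped to several places had been dropped, and chaperone genes have many near-identical copies: 21.4% of the compared members had under 0.5 of their exonic sequence mappable, against 5.99% of all compared genes. The mappable share was 0.0237 for Hspa8, 0.0305 for Hsp90aa1, 0.0317 for Hspd1, 0.0531 for Hspb1 and 0.122 for Hspe1. Of the compared members, Hsp90ab1, Dnaja1, Dnajc2, Dnajc8 and Dnajc11 were also under 0.5. The levels per length of all these genes, which count the whole exonic length, are lower bounds, and 0 reads of Hspb1 says little about that gene.

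**Figure D1:**
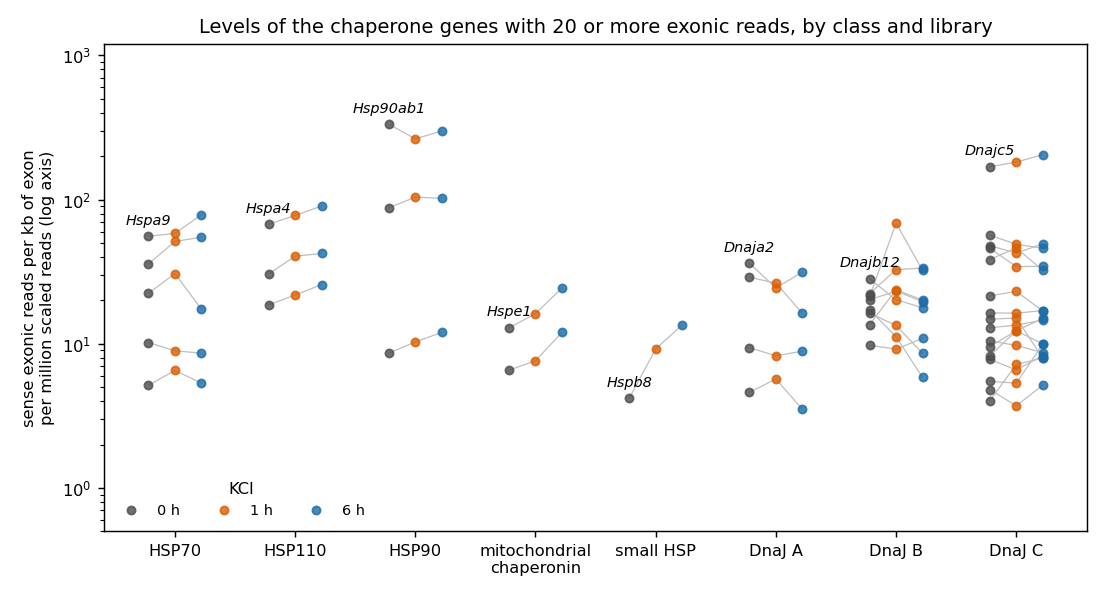
Sense exonic reads per kb of exon and per 1000000 scaled reads (log axis) for the 42 chaperone genes with at least 20 exonic reads in 1 library, by class (x axis), with lines joining the 0, 1 and 6 h libraries of a gene and the name of the gene highest at 0 h. In these values, which are not corrected for mappability, Hsp90ab1 and Dnajc5 stand above all others, and Dnajb1 leaves the rest of its class at 1 h only.

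The levels per length that follow come from unique reads and are not corrected for mappability. Hsp90ab1, which encodes the constitutive cytosolic HSP90, had a level of 333 exonic reads per kb of exon per 1000000 scaled reads (RPKM) at 0 h, 264 at 1 h and 299 at 6 h. Dnajc5, for cysteine string protein, had 169, 182 and 205. Hsp90b1, the HSP90 of the endoplasmic reticulum, had 87.8, 104 and 102, and Hspa4 of the HSP110 class 67.6, 77.6 and 90.2. Of the HSP70 genes the mitochondrial Hspa9 had 55.7, 58.3 and 78.4 and the constitutive cytosolic Hspa8 35.8, 51.3 and 54.8. The authors' coverage, which they corrected for mappability, gives another order: Hspa8 stood highest with 135, 223 and 226, above Hsp90ab1 with 63.0, 58.9 and 62.6. Hsp90aa1 followed with 26.4, 36.4 and 39.0 and Hspd1 with 18.7, 27.1 and 37.4, both above Dnajc5 with 15.1, 19.2 and 20.4, and Hspa9 had 9.61, 11.9 and 14.9. The corrected values of Hspa8, Hsp90aa1 and Hspd1 rest on the few reads of a small mappable part. In RPKM, Dnaja2 (36.2, 24.4 and 31.4) was highest of the DnaJ A genes at 0 h and Dnajb12 (28.2, 20.2 and 17.8) of the DnaJ B genes. All 62 members together held 9132, 10552 and 10287 exonic reads, or 4075, 4199 and 4341 RPM, and their summed ratio was 1.03 (interval 1.00 to 1.06) at 1 h and 1.07 (1.04 to 1.10) at 6 h. Hsp90ab1 alone weighs on that sum: without it the ratios were 1.09 (1.06 to 1.13) and 1.11 (1.07 to 1.14). With total exonic reads as the scale, the 6 h ratio of all members was 0.994.

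At 1 h against 0 h, 2 of the 42 compared members were called at least 2-fold higher, Dnajb1 and Hspb8, where 1.58% of all compared genes were. None was called 2-fold lower, against 1.43% of all genes. At 1.5-fold, 3 members were higher (the same 2 and Dnajb9), against 3.76%, and Dnajb5 was lower, against 5.30%. The median log2 ratio of the members was 0.11, beside 0.01 for all compared genes, and 25 of 42 members (59.5%) were above 1, beside 51.0%. Per uniquely mapped read, of which a larger share was exonic at 1 h, the all-gene median was 0.25 and that of the members 0.35. On that scale 7 members were 1.5-fold higher and 0 lower, beside 11.5% and 1.77% of all genes.

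At 6 h against 0 h, Hspb8 was called 2-fold higher (4.92% of all genes) and Dnajb5 2-fold lower (5.42%). At 1.5-fold, 7 members were higher, Dnajb1, Dnajb4, Dnajc1, Hspa8, Hspb8, Hspd1 and Hspe1 (11.6% of all genes), and 5 were lower, Dnaja3, Dnajb5, Dnajb12, Dnajb14 and Dnajc16 (13.2%). These shares of members lie near the background. Scaling by total exonic reads left 2 of the 7 higher, Hspb8 and Hspd1, and 5 members lower, beside 8.75% and 17.1% of all genes. Per mapped read 13 were higher and 4 lower, beside 17.5% and 8.68%. The median log2 ratio was 0.08, beside 0.00 for all genes.

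Between 1 h and 6 h no member was called 2-fold higher (4.17% of all genes), and Dnajb1 was called 2-fold lower (4.63%). At 1.5-fold, Dnajc1 and Hspd1 were higher (9.88%). Lower at that fold were 6 members, Dnaja3, Dnajb1, Dnajb5, Dnajb14, Dnajc16 and Hspa14 (10.9%). With total exonic reads as the scale 1 was higher and 8 lower, beside 7.55% and 14.2% of all genes. The median log2 ratio was 0.06, beside 0.01 for all genes.

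**Figure D2:**
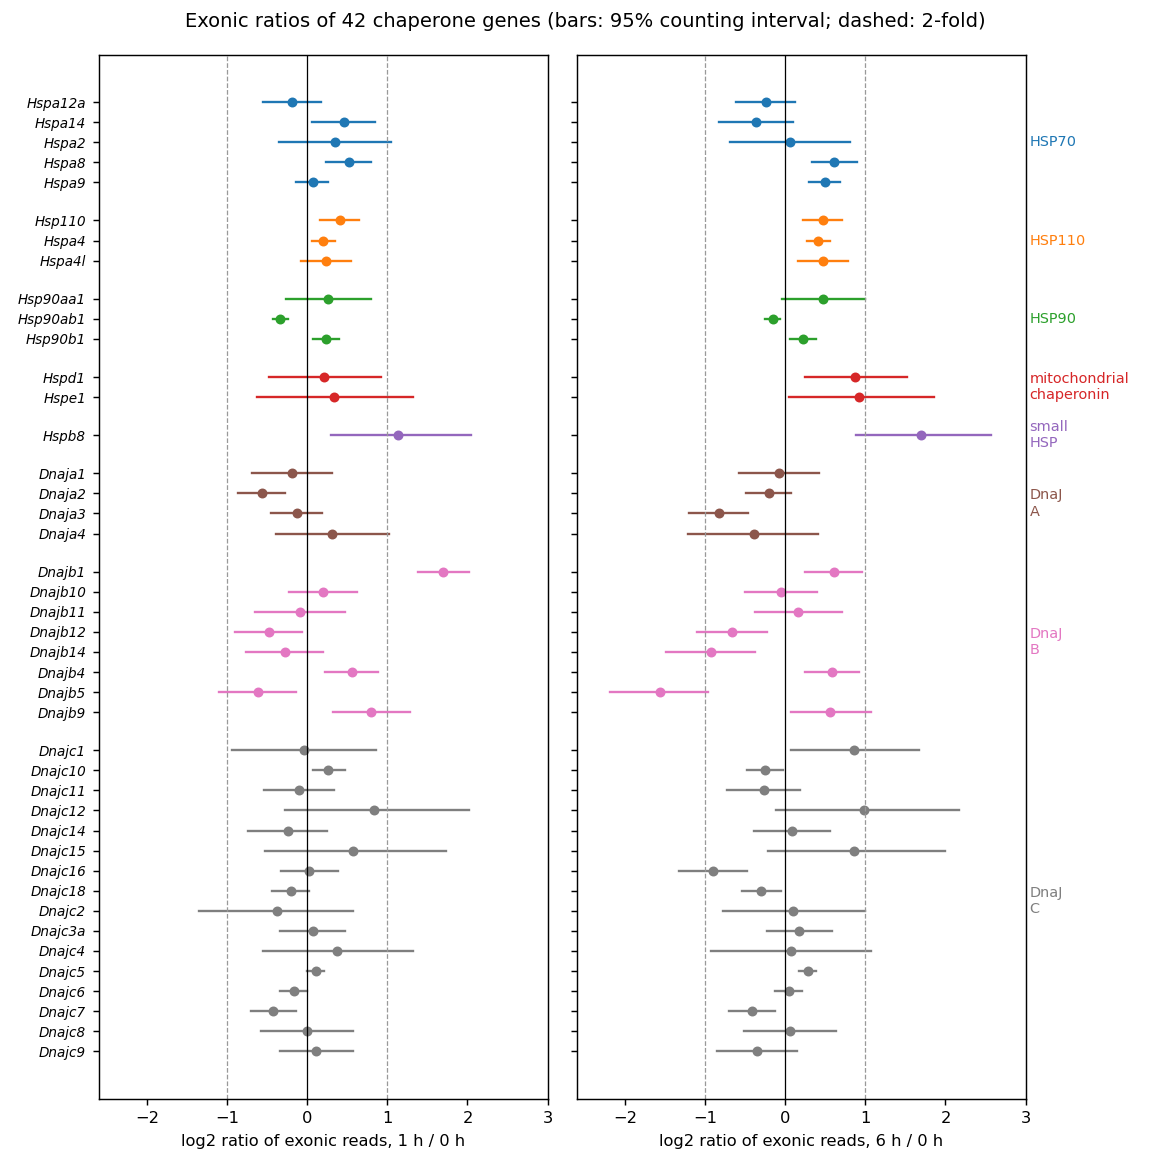
Log2 ratio of scaled exonic reads at 1 h (left) and 6 h (right) against 0 h for the 42 compared chaperone genes, 1 row per gene and 1 colour per class, with the 95% counting interval as a bar and the 2-fold lines dashed. Dnajb1 lies far right at 1 h (ratio 3.23) and has moved back to 1.52 at 6 h, where Hspb8 is highest and Dnajb5 lowest.

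Dnajb1 (chr8:86132092-86135802, plus strand, mm9) encodes the classical stress-inducible HSP40, the DnaJ partner of cytosolic HSP70. Its exons held 107 reads at 0 h, 388 at 1 h and 172 at 6 h. The 1 h library was thus the highest, and the 3 counting intervals of its level did not overlap. The ratio was 3.23 (2.60 to 4.04) at 1 h, 1.52 (1.19 to 1.95) at 6 h, and 0.470 (0.390 to 0.564) from 1 h to 6 h. The 3 exons had 6, 28 and 72 reads at 0 h, 15, 125 and 245 at 1 h, and 10, 70 and 92 at 6 h, so at 1 h all 3 were higher, with ratios of 2.23, 3.98 and 3.03. Its introns held 4, 15 and 5 reads, too few for the 20-read minimum.

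Dnajb1 and the small HSP gene Hspb8 differed in time course. Hspb8 (chr5:116858504-116872873, minus strand, mm9) encodes a small HSP that works with the cochaperone BAG3 in clearing misfolded proteins, and it had 17, 42 and 58 exonic reads. The 6 h library was the highest, with ratios of 2.20 (1.23 to 4.13) at 1 h, 3.23 (1.85 to 5.91) at 6 h and 1.46 (0.968 to 2.23) between them. That last interval includes 1, so the 1 h and 6 h libraries did not differ beyond counting error. Bag3 had 1 read in each library. Of the other small HSP genes only Hspb6 passed 3 reads, with 15, 13 and 4, and without Hspb8 the class had 16, 13 and 4 reads, a 6 h ratio of 0.236 (0.0575 to 0.733) where the class with Hspb8 had 1.78.

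Among the other DnaJ B genes, Dnajb5 (chr4:42965966-42971604, plus strand, mm9) had 89, 65 and 32 exonic reads. It was lowest at 6 h, with ratios of 0.651 (0.466 to 0.907) and 0.340 (0.22 to 0.515), and its 2 longer exons had 23, 14 and 3 reads and 53, 43 and 21. The 1 h call ended when libraries were scaled by uniquely mapped reads, at 0.769. Dnajb9, an endoplasmic reticulum cochaperone, had 57, 111 and 89 reads, higher at 1 h by 1.74 (1.25 to 2.43) and at 6 h by 1.48 (1.05 to 2.10). Dnajb4, a cytosolic relative of Dnajb1, had 124, 204 and 197 reads, with ratios of 1.47 (1.17 to 1.85) and 1.5 (1.19 to 1.90). Dnajb12 and Dnajb14, whose proteins sit in the endoplasmic reticulum membrane with the J domain in the cytosol, were both lower at 6 h. Dnajb12 had 112, 90 and 75 reads, a 6 h ratio of 0.633 (0.466 to 0.856) that no longer passed 1.5-fold on the scale of mapped reads. Dnajb14 had 79, 73 and 44, a ratio of 0.527 (0.356 to 0.771). Summed over the class the DnaJ B genes stood at 723, 1117 and 778 reads, and without Dnajb1 the 1 h ratio dropped from 1.38 (1.25 to 1.52) to 1.06 (0.947 to 1.18).

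**Figure D3:**
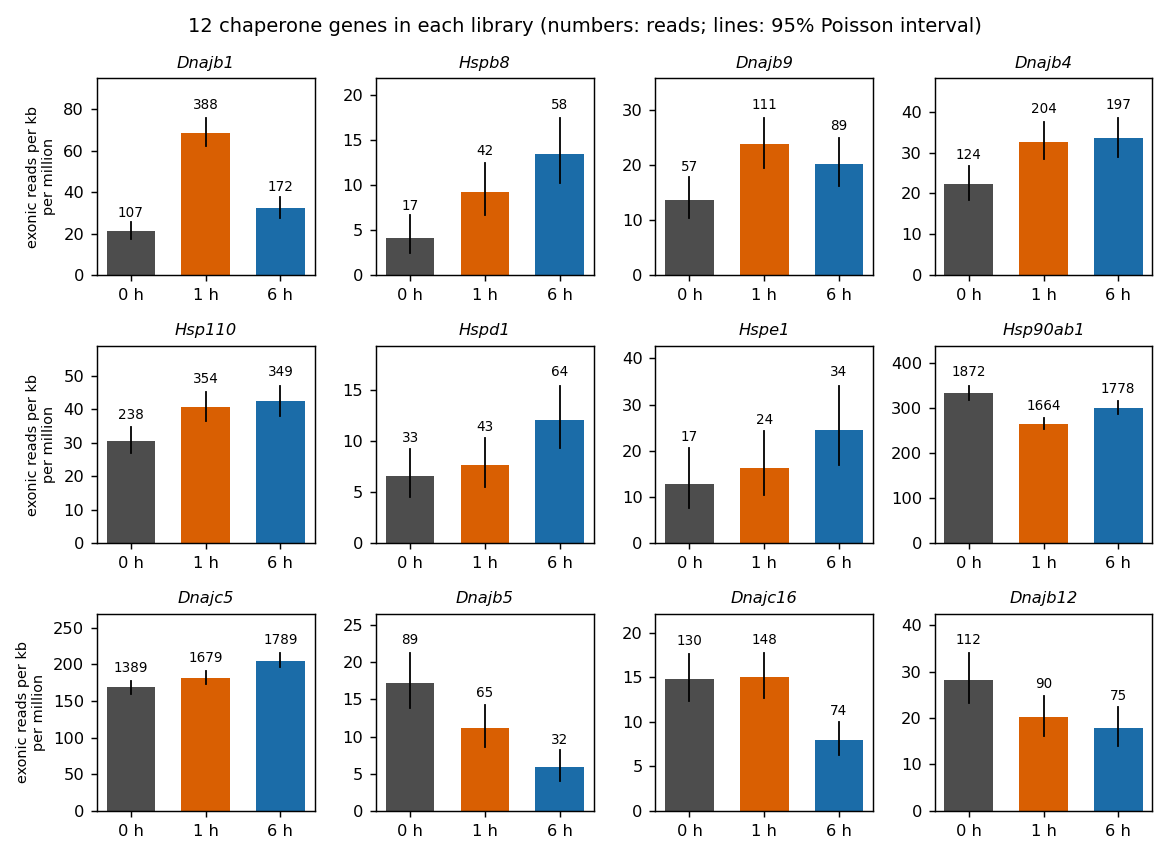
Exonic reads per kb and per 1000000 scaled reads (y axis, from 0) of 12 chaperone genes at 0, 1 and 6 h, 1 bar per library, with read numbers above the bars and 95% Poisson intervals as lines. Dnajb1 peaks at 1 h with 388 reads, Hspb8, Hspd1 and Hspe1 are highest at 6 h, and Dnajb5, Dnajc16 and Dnajb12 are lowest at 6 h.

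Heat shock elements were searched in the RefSeq promoters of the GRCm38.p6 build, 250 bases before to 50 after a start. Such promoters were available for 50 of the 62 members. The 12 not searched were Dnajc2, Dnajc5, Dnajc5b, Dnajc11, Dnajc12, Dnajc18, Hsp90aa1, Hsp90ab1, Hspa8, Hspa9, Hspb2 and the chromosome 11 copy of Hspd1. The search used the 3-unit forms GAANNTTCNNGAA and TTCNNGAANNTTC, which between them cover both strands. Promoters of 4 member genes held one (8.0%), against 179 of 27025 genes (0.662%): Hspd1, Hspe1, Dnajb6 and Hsp110, whose current symbol is Hsph1. The 2-unit forms GAANNTTC and TTCNNGAA, which lie inside the 3-unit ones, occurred in 15 members (30.0%) and 17.0% of all genes, and the cAMP response element TGACGTCA in none of the 50 members and 2.03% of all genes. The promoter of Dnajb1, the member with the highest 1 h ratio, held none of these forms. Its upstream part is shown with those of Hspd1 and Dnajb6, upstream bases only, 5′ to 3′ on the gene's strand, with 3-unit elements in capitals. They lie at chr8:83607925-83608174 (plus strand), chr1:55087933-55088182 (minus) and chr5:29735648-29735897 (plus) of GRCm38.p6.
Dnajb1: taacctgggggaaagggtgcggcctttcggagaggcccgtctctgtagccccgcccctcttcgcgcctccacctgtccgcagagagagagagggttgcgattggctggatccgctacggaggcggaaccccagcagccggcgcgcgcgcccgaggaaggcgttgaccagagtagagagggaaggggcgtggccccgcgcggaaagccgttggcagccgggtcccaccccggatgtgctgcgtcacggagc
Hspd1: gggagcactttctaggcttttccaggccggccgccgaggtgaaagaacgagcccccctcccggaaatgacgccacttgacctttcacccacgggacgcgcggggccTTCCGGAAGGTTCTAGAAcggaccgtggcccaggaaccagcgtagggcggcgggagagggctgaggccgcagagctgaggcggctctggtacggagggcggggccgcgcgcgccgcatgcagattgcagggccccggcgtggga
Dnajb6: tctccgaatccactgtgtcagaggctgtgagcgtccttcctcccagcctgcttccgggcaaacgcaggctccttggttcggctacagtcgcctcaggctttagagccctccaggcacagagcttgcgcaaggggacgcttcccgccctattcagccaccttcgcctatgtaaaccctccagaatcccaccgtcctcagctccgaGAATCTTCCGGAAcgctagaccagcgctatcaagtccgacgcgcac
In Hspd1 2 overlapping elements begin 144 and 139 bases before the start, and since Hspe1 starts in the other direction from the same stretch, both genes share them. In Dnajb6 the element begins 46 bases before the start used for the stretch shown, and 127 bases before another start of the gene. A match is a description of these letters and not evidence of binding, and no match says only that this exact form is not in the window.

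The Hsp110 element lies just after the start, and the 2 inducible HSP70 genes carry the same 2-unit form 104 bases before theirs. The short stretches around them are shown with the element in capitals, at chr5:149636280-149636308, chr17:34972245-34972268 and chr17:34959327-34959350, all on the minus strand of GRCm38.p6.
Hsp110: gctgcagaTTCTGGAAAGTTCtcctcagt
Hspa1a: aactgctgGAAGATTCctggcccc
Hspa1b: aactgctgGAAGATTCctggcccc
Hspa1a and Hspa1b are identical over this stretch. They are the textbook heat-induced HSP70 genes, and both stayed near the floor: Hspa1a had 4, 13 and 12 exonic reads and Hspa1b 11, 7 and 9, with a mappable share of 0.233 and 0.223. The 1 h ratios of 2.90 (0.895 to 12.2) and 0.568 (0.187 to 1.60) have intervals that include 1, and neither gene reached the 20-read minimum.

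The 3 genes with HSP110 proteins, the exchange factors of HSP70, were above 1 at 1 h and at 6 h under each of the 5 scalings used. Hsp110 had 238, 354 and 349 exonic reads, with ratios of 1.33 (1.12 to 1.57) and 1.39 (1.17 to 1.64). Hspa4 had 703, 905 and 992, with 1.15 (1.04 to 1.27) and 1.33 (1.21 to 1.47). Hspa4l had 148, 195 and 217, with 1.18 (0.944 to 1.46) and 1.39 (1.12 to 1.72). In all 3 the 0 h library was the lowest, and no ratio passed 1.5 on the main scale. Summed, the class had 1089, 1454 and 1558 reads, a ratio of 1.19 (1.10 to 1.29) at 1 h and 1.35 (1.25 to 1.46) at 6 h.

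The HSP70 genes were less uniform. Hspa8, for the constitutive HSC70, had 169, 271 and 273 reads, with ratios of 1.43 (1.18 to 1.74) and 1.53 (1.26 to 1.86). Its unique reads came from few exons: the first had 22, 89 and 40 reads and the last 55, 53 and 92, the fourth had 36, 42 and 37, and 4 of the 9 exons had none, so the 5 exons with reads differed in time course. Hspa9, the mitochondrial HSP70, had 374, 439 and 557, with 1.05 (0.910 to 1.2) and 1.41 (1.23 to 1.61). Hspa14, a ribosome-associated HSP70, had 90, 138 and 74, higher at 1 h by 1.37 (1.04 to 1.80) and at 0.778 (0.564 to 1.07) at 6 h. Hspa2 had 31, 44 and 34 reads, with 1.27 (0.781 to 2.07) and 1.04 (0.619 to 1.75). Hspa12a, a divergent HSP70 relative, was the lowest of the class at 1 h, with 131, 129 and 117 reads and a ratio of 0.878 (0.683 to 1.13).

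Of the 3 HSP90 genes, Hsp90ab1 was below 1 at both times and the other two above. Hsp90ab1 had 1872, 1664 and 1778 reads, with ratios of 0.793 (0.742 to 0.847) and 0.898 (0.841 to 0.959). On the scale of mapped reads the same ratios were 0.935 and 0.996, closer to 1. Exon by exon, 9 of its 11 exons were below 1 at 1 h. The stress-inducible cytosolic gene Hsp90aa1 had 55, 74 and 81 reads, with 1.2 (0.835 to 1.73) and 1.39 (0.977 to 2.0), and Hsp90b1 had 543, 719 and 669, with 1.18 (1.05 to 1.32) and 1.17 (1.04 to 1.31).

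The mitochondrial pair Hspd1 (HSP60) and Hspe1 (HSP10), which form 1 folding chamber and share the promoter shown above, had similar ratios. Hspd1 had 33, 43 and 64 exonic reads and Hspe1 17, 24 and 34, lowest at 0 h and highest at 6 h in both. The 6 h ratios were 1.83 (1.19 to 2.88) and 1.89 (1.03 to 3.61), and the 1 h ratios of 1.16 (0.721 to 1.89) and 1.26 (0.649 to 2.50) have intervals that include 1. The mitochondrial DnaJ gene Dnaja3 was lower at 6 h, with 168, 172 and 100 reads and a ratio of 0.563 (0.435 to 0.725).

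In the DnaJ A class, whose proteins are the general cochaperones of HSP70, 3 of 4 genes were below 1 at 1 h and 4 of 4 at 6 h, but per mapped read Dnaja1 and Dnaja3 turned above 1 at 1 h and Dnaja1 at 6 h. Dnaja2 had 230, 174 and 211 reads, a 1 h ratio of 0.675 (0.551 to 0.825) and a 6 h ratio of 0.868 (0.716 to 1.05). Dnaja1 had 70, 69 and 70 reads, and Dnaja4 31, 43 and 25. As a class the ratio was 0.819 (0.719 to 0.931) at 1 h and 0.769 (0.673 to 0.879) at 6 h. Without Dnaja2, the most abundant, it was 0.942 (0.794 to 1.12) at 1 h, an interval that includes 1. The 6 h ratio without Dnaja2 was 0.686 (0.567 to 0.827).

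The 16 compared DnaJ C genes, the class with the most varied functions, were split at 1 h, with 8 above 1 and 8 below (13 and 3 per mapped read), and summed to a ratio of 1.01 (0.962 to 1.05). Dnajc5 had 1389, 1679 and 1789 reads and a 6 h ratio of 1.22 (1.13 to 1.31), and Dnajc6, for the clathrin-uncoating cochaperone auxilin, 559, 557 and 608 with 1.03 (0.915 to 1.16). Dnajc16 had 130, 148 and 74 reads, level at 1 h and at 0.538 (0.399 to 0.722) at 6 h. Dnajc1, a reticulum membrane cochaperone, had 22, 24 and 42, with 1.81 (1.05 to 3.18) at 6 h, and it overlaps another gene model on the same strand that can share its reads. Dnajc7 was lower at both times on the main scale, with 238, 199 and 189 reads and ratios of 0.746 (0.615 to 0.904) and 0.751 (0.617 to 0.913). Per mapped read both Dnajc7 ratios lay closer to 1, with intervals that include 1. Dnajc12, the cochaperone of aromatic amino acid hydroxylases, had the class's highest ratios, 1.78 (0.829 to 4.07) and 1.98 (0.926 to 4.49), from 11, 22 and 23 reads, with intervals that include 1. Dnajc18 had 307, 298 and 264 reads, and a 6 h ratio of 0.813 (0.687 to 0.962). Among reticulum cochaperones, Dnajc3a (now Dnajc3) had 96, 113 and 115 reads, Dnajb11 55, 58 and 65, and Dnajc10 349, 471 and 311, of which the last had a 1 h ratio of 1.2 (1.05 to 1.39). Dnajc4, Dnajc8, Dnajc9, Dnajc11 and Dnajc14 lay between 0.844 and 1.29 at 1 h and between 0.786 and 1.06 at 6 h, with intervals that include 1.

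The partners of these chaperones outside the name rule were described from a list of 45 genes, of which 42 were compared: heat shock factors, HSP70 and HSP90 cochaperones, the cytosolic chaperonin and prefoldin. None was called 2-fold higher or lower at 1 h, beside 1.58% and 1.43% of all genes. At 6 h none was 2-fold higher (4.92% of all genes) and 1 was lower (5.42%). This was the HSP90 cochaperone gene Fkbp5, with 72, 74 and 32 reads and a ratio of 0.420 (0.268 to 0.646). At 1.5-fold, no gene was higher at 1 h (3.76% of all genes). Lower at that fold was 1 gene, Bag5, with 74, 53 and 76 reads (5.30%). At 6 h 1 gene was 1.5-fold lower, again Fkbp5 (13.2%), and 6 were higher (11.6%). The highest were Unc45a at 1 h (148, 234 and 264 reads, 1.41) and Pfdn2 at 6 h (52, 66 and 105 reads, 1.91). Hsf1, the heat shock factor itself, had 35, 51 and 54 reads, with ratios of 1.3 (0.829 to 2.06) and 1.46 (0.936 to 2.30), and Hsf2 122, 185 and 197, with 1.35 (1.07 to 1.71) and 1.53 (1.21 to 1.93). The median log2 ratio of the list was 0.09 at 1 h and 0.22 at 6 h, beside 0.01 and 0.00 for all genes.

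Intronic reads come mostly from RNA that is not yet spliced, and they give a second reading of the same genes. Of the 62 members, 35 had at least 20 intronic reads in 1 library and 8 have no intron. Intronic reads were 49.2%, 42.1% and 45.8% of all sense exonic and intronic reads at 0, 1 and 6 h, so each ratio below is relative to the introns of all genes (intronic scale), and the same reads set against exonic totals give lower ratios at 1 h (exonic scale). On the exonic scale the median log2 intronic ratio of all genes at 1 h was -0.67 in place of -0.06.

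At 1 h, 7 of 33 compared members were called 2-fold higher in introns on the intronic scale, against 7.48% of all genes: Hspa4, Dnajb6, Hspa14, Hsp90b1, Hspa8, Dnajb10 (now Dnajb2) and Hspa9. Dnajc10 and Dnajc16 were 2-fold lower, against 6.19%. On the exonic scale 1 member was 2-fold higher and 11 were lower, beside 2.59% and 27.2% of all genes, so the split depends on the scale. At 1.5-fold, 13 members were higher (15.6%), which added Dnaja1, Dnaja2, Dnajc1, Dnajc3a, Dnajc17 and Hspd1. Lower at that fold were 3, Dnajb14, Dnajc10 and Dnajc16 (12.8%). Of the 13 higher, Hspa4, Hspa14 and Dnajb6 also passed 1.5-fold on the exonic scale. There 3 members were higher and 15 lower, beside 4.31% and 50.0% of all genes. Dnajb10 had 38, 60 and 37 intronic reads, a ratio of 2.15 (1.41 to 3.32), or 1.41 (0.923 to 2.17) on the exonic scale. Dnajc17 had 29, 37 and 36, with 1.74 (1.04 to 2.93) or 1.14 (0.681 to 1.92). The members' median log2 ratio was 0.17, beside -0.06 for all genes.

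At 6 h against 0 h, 1 of 35 members was called 2-fold higher in introns, Hsp90b1 (5.27% of all genes), and 2 lower, Dnajb4 and Dnajc16 (5.59%). At 1.5-fold 4 were higher, Hsp90b1, Hspa4, Hspa9 and Dnajc18 (13.2%), and the same 2 lower (10.9%). On the exonic scale 2 were higher and 2 lower, beside 6.47% and 20.2% of all genes. From 1 h to 6 h, 2 of 34 were 2-fold higher, Dnajc15 and Dnajc2 (7.07%), and 1 lower, Dnajb4 (5.79%). Dnajc15, linked to protein import into mitochondria, had 19, 5 and 23 intronic reads and the ribosome-associated Dnajc2 29, 12 and 31, both lowest at 1 h. At 1.5-fold 4 were higher (13.9%) and 8 lower (12.2%) on the intronic scale, and 13 and 2 on the exonic scale, where 33.4% and 4.82% of all genes were.

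Hspa4 had 84, 207 and 134 intronic reads and the highest 1 h ratio, 3.35 (2.59 to 4.38), or 2.20 (1.70 to 2.87) on the exonic scale, where its exons stood at 1.15. Its intron 1, as the files number them, had 18, 77 and 46 reads, a ratio of 5.82 (3.45 to 10.3). Dnajb6, which encodes a cochaperone that holds back polyglutamine aggregation, had 179, 312 and 196 intronic reads, with 2.37 (1.97 to 2.87) or 1.55 (1.29 to 1.88), beside 9, 12 and 9 exonic reads at a mappable share of 0.185. Its promoter holds the element shown above. Hspa14 had 98, 166 and 120 intronic reads, with 2.31 (1.79 to 2.99) or 1.51 (1.17 to 1.96). Hsp90b1 had 43, 71 and 84, with 2.25 (1.52 to 3.36) at 1 h, or 1.47 (0.994 to 2.20) on the exonic scale, and 2.19 (1.5 to 3.24) at 6 h.

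Dnajc10 and Dnajb4 were among the members whose intronic and exonic ratios lay on opposite sides of 1. In Dnaja2 at 1 h the introns were above 1, at 1.57 (1.04 to 2.38), and the exons below, at 0.675. In Dnajc18 at 6 h the introns were at 1.63 (1.17 to 2.29) and the exons at 0.813. On the exonic scale these intronic ratios were 1.03 (0.679 to 1.56) and 1.37 (0.982 to 1.93). Dnajc10, which encodes the reductase ERdj5, had 149, 52 and 118 intronic reads, a 1 h ratio of 0.475 (0.340 to 0.655), while its exons were at 1.2. The 6 h intronic ratio was 0.888 (0.692 to 1.14). Dnajb4 had 114, 85 and 42 intronic reads, a 6 h ratio of 0.413 (0.283 to 0.593), while its exons were at 1.5. Intron 1 held most of them, with 94, 48 and 30, while intron 2 had 16, 32 and 10 reads. Dnajc16 had 31, 7 and 12 intronic reads, lower at both times at 0.307 (0.114 to 0.711) and 0.434 (0.203 to 0.869), with exons at 1.02 and 0.538. As a share of a gene's sense reads, introns made up 29.9%, 9.94% and 27.5% in Dnajc10 and 47.9%, 29.4% and 17.6% in Dnajb4.

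**Figure D4:**
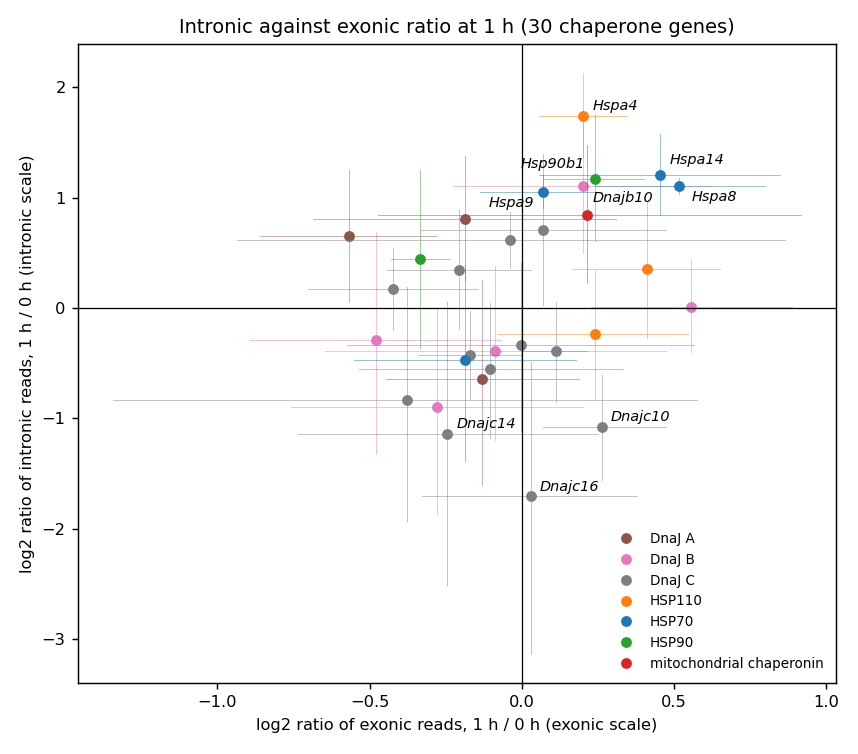
Log2 ratio of intronic reads (y axis, intronic scale) against that of exonic reads (x axis, exonic scale) at 1 h over 0 h for the 30 chaperone genes with at least 20 reads of both kinds, with 95% counting intervals as thin lines and colour by class. Hspa4 is highest on the intronic axis at 3.35, and Dnajc10 and Dnajc16 lie low on it with exonic ratios of 1.2 and 1.02.

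Hspa8 had more intronic than exonic reads, 2476, 3926 and 3084, and nearly all of them fell in 3 of its 8 introns. Introns 5, 6 and 8 held 667, 674 and 1117 reads at 0 h, 1045, 1105 and 1760 at 1 h and 778, 782 and 1510 at 6 h, or 99.3%, 99.6% and 99.5% of the intronic reads of the gene. GENCODE places a small nucleolar RNA (snoRNA) in each of these 3 introns, matched here by gene symbol and intron length because the files use mm9. They are Snord14c, Snord14d and Snord14e, box C/D snoRNAs of the U14 family, which acts in the processing of ribosomal RNA and is cut out of spliced introns. Their sequences follow, with the box C core and the last box D in capitals, from GENCODE on GRCm38 at chr9:40803583-40803668, chr9:40803995-40804080 and chr9:40804748-40804837, plus strand.
Snord14c: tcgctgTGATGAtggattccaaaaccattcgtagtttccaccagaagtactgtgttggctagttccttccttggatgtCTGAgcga
Snord14d: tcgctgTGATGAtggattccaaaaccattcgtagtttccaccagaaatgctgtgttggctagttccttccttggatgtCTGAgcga
Snord14e: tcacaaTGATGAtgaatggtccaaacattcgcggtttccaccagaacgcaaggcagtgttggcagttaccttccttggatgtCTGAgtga
The first and second are 97.7% identical over 86 aligned positions and share 15 of 52 words of 35 bases, the read length, and a read from such a word would not map uniquely. The remaining words differ at fewer bases than the 3 mismatches allowed, and whether reads from them were assigned to the right intron was not tested. Both are 79.6% identical to the third. The counts do not say where in an intron a read lies.

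The 3 snoRNA introns together had a 1 h ratio of 2.17 (2.06 to 2.28) on the intronic scale, 1.67 (1.59 to 1.76) per mapped read and 1.42 (1.35 to 1.49) on the exonic scale. The remaining 5 introns held 18, 16 and 14 reads, a ratio of 1.21 (0.577 to 2.51), so without the snoRNA introns Hspa8 had too few intronic reads to be compared. Introns with a snoRNA in other genes give the background. Over 225 such introns of 155 genes outside the members the median 1 h ratio was 1.74 (quartiles 1.47 to 1.98) on the intronic scale and 1.14 (0.965 to 1.3) on the exonic scale. Hspa9 also holds snoRNA models, in introns 10 and 11. Intron 10 had 535, 808 and 742 reads, a 1 h ratio of 2.06 (1.84 to 2.30). Its 14 introns without one held 56, 102 and 96 reads, with 2.48 (1.77 to 3.50) at 1 h and 1.92 (1.37 to 2.72) at 6 h.

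**Figure D5:**
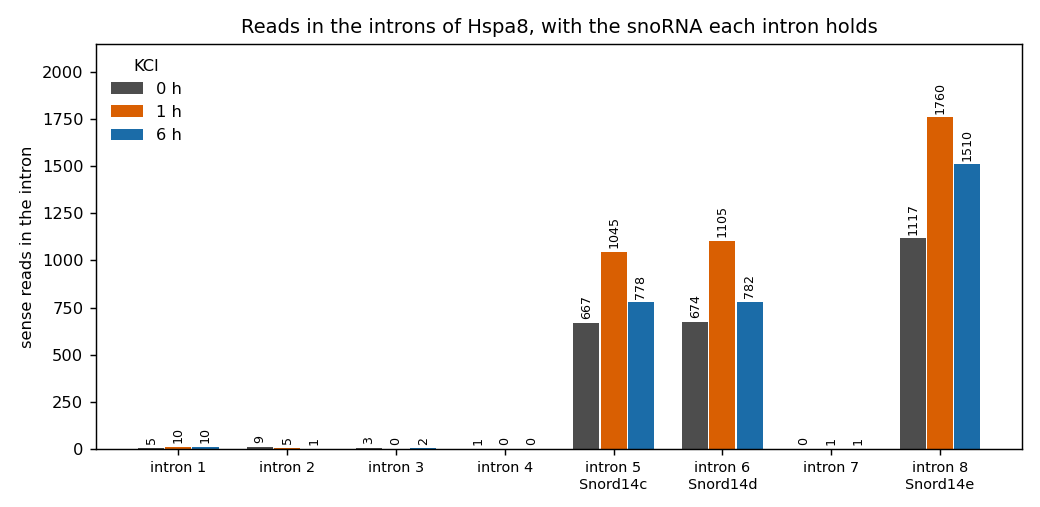
Sense reads in each of the 8 introns of Hspa8 (x axis, with the snoRNA an intron holds) in the 0, 1 and 6 h libraries, read numbers above the bars. Introns 5, 6 and 8 hold nearly all reads and are highest at 1 h, and no other intron passes 10 reads.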

How the data were processed

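RNA of 3 libraries, 1 each at 0, 1 and 6 h of KCl, was analysed. Per the labels' protocols, total RNA was depleted of ribosomal RNA, fragmented, ligated with its strand kept and sequenced on a SOLiD instrument. The authors deposited raw counts of sense and antisense reads for each gene, exon and intron, on mm9 per the submitters' processing notes. Per the file headers and counting logs, reads of 35 bases with up to 3 mismatches had to map uniquely, by an aligner not given in the sources used here. A coverage signal per gene, which the authors scaled to 10000000 mapped reads and corrected for mappability, served as an alternative only.

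Counts were scaled with TMM factors (edgeR 4.0.16), exonic and intronic reads apart. Alternatives were DESeq2 1.42.0 size factors, total exonic or mapped reads, other minimum reads, and, chosen after seeing the data, introns without snoRNAs. Reads of PCR copies are not independent molecules. The ratio and interval code was tested on simulated data. The members, lists and rules were chosen with earlier results of these data known. Named with values were members called in any comparison, the 2 most abundant and the highest and lowest of each class, and, of the pathway list, genes called 2-fold and its extremes. Dnajc6, Hspa1a, Hspa1b, Hspa2, Hspa4l, Dnajc4, Dnajc8, Dnajc9, Dnajc11, Dnajc14, Bag3, Hsf1 and Hsf2 fall outside that rule and were added with their values known. Promoters (RefSeq, GRCm38.p6) and snoRNAs (GENCODE vM21, GRCm38) were matched by symbol. Protein sequences were not used here.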

Additional observations from a re-analysis of the deposited data

How the results depend on the processing

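No paired analysis was possible because each time has 1 library, so no replicate number is shared and no library can be left out. Limits: ratios carry counting error only, and genes under 20 reads were not compared. Of 132 counts of called members under the alternatives, 89 lay within 1.5 times the main count and 43 did not. No named member's called ratio was reversed. The cause of each change was not tested.

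Exonic reads scaled per mapped read gave 7 members 1.5-fold higher, 0 lower and 3 at 2-fold higher at 1 h (main 3, 1 and 2). The shares of all genes were 11.5%, 1.77% and 2.93%. At 6 h this scale gave 13 and 5 higher at 1.5-fold and 2-fold (main 7 and 1), beside 17.5% and 6.86% of all genes. From 1 h to 6 h it gave 3 at 2-fold lower and 1 at 1.5-fold higher (main 1 and 2), beside 6.11% and 7.70%. The authors' coverage gave 7, 0 and 3 at 1 h, 11 and 4 at 6 h, and 3 and 0 from 1 h to 6 h. In the same order, the shares of all genes were 11.2%, 1.79% and 2.85%, 17.3% and 6.72%, and 5.93% and 7.59%. Total exonic reads gave 2 members 1.5-fold higher and 2 at 2-fold lower at 6 h (main 7 and 1), beside 8.75% and 7.19% of all genes. From 1 h to 6 h that scale gave 3 at 2-fold lower and 1 at 1.5-fold higher, beside 6.19% and 7.55%. With no minimum, 2 members were 2-fold lower at 6 h (4.59% of all genes). With at least 50 reads, 1 was 2-fold higher at 1 h (1.05%) and 1 was 1.5-fold higher from 1 h to 6 h (10.5%).

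Intronic reads on the exonic scale gave, at 1 h, 3 members higher and 15 lower at 1.5-fold, and 1 and 11 at 2-fold (main 13, 3, 7 and 2), beside 4.31%, 50.0%, 2.59% and 27.2% of all genes. At 6 h this scale gave 2 at 1.5-fold higher and 0 at 2-fold higher (main 4 and 1), beside 6.47% and 3.08% of all genes. From 1 h to 6 h it gave 13 higher and 2 lower at 1.5-fold, and 8 and 0 at 2-fold (main 4, 8, 2 and 1). The shares of all genes from 1 h to 6 h were 33.4%, 4.82%, 15.5% and 2.65%. Per mapped read the counts at 1 h were 7 and 11, and 1 and 7, beside 7.00%, 33.2%, 3.68% and 15.7% of all genes. From 1 h to 6 h the counts were 11 and 4 at 1.5-fold and 7 at 2-fold higher, beside 27.8%, 5.93% and 12.9%. With at least 50 reads, 1 member was lower at either fold at 1 h and at 6 h. The shares of all genes lower at 1.5-fold and 2-fold were 12.8% and 3.63% at 1 h and 9.99% and 3.28% at 6 h. From 1 h to 6 h 1 member was 1.5-fold and 0 were 2-fold higher, beside 15.7% and 6.16%. With no minimum, 3 members were 2-fold lower at 1 h (4.25% of all genes) and 2 from 1 h to 6 h (4.21%).

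Without the most abundant member of the class, the 1 h ratio of class sums was 1.18 for HSP90 (reversed from 0.887), 0.725 for small HSPs, 0.942 for DnaJ A, 1.06 for DnaJ B, 0.959 for DnaJ C and 1.09 for all members. At 6 h it was 1.12 for HSP70, 1.19 for HSP90, 0.236 for small HSPs (reversed from 1.78), 0.910 for DnaJ C and 1.11 for all members. Scaled by total exonic reads, the 6 h ratio was 0.903 for HSP90, 0.965 for DnaJ C and 0.994 for all members, reversed from 1.07.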

Other observations

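Over all genes, antisense reads were 1.29% to 1.55% of exonic reads. The HSP70 gene Hspa1l had 21, 11 and 8 antisense exonic reads at 0, 1 and 6 h beside at most 2 sense reads. The introns of Dnajc19, a gene for a mitochondrial import protein, had 319, 336 and 341 antisense reads beside 26, 9 and 20 sense reads, and another gene, Fxr1h in the files, overlaps it on the opposite strand.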
